A study of Homo sapiens with 6 samples.

Results

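The genes described here encode the heat shock chaperones of the cytosol and mitochondria in A375, an established human melanoma cell line, with or without fluvastatin. They were the genes with symbols of the HSP90A, HSPA, HSPB, HSPD1, HSPE1 and HSPH1 series and of the DNAJA, DNAJB and DNAJC series, together with the regulators HSF1, HSF2 and BAG3. Hyphenated symbols, numbered pseudogenes and 4 chaperones of the endoplasmic reticulum, HSPA5, DNAJB9, DNAJB11 and DNAJC3, were left out. The rule gave 73 of the 29790 genes in the deposited table. Of these, 64 were annotated protein coding and 9 were of another type, namely 8 HSP90 pseudogenes and HSPA7. The rule goes by symbol, so it also kept a few genes whose products are known from other places in the cell, among them DNAJC1, DNAJC10, HSPA13, DNAJB12 and DNAJB14 of the endoplasmic reticulum and HSPB11, a protein of intraflagellar transport.

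The fluvastatin group held 3 libraries of A375 cells exposed to 3 µM of the drug for 24 h, and the control group held 3 libraries of untreated A375 cells cultured alongside. Fluvastatin is a statin, which blocks the enzyme that makes mevalonate, and the design asks how the transcriptome of these cells differs with the drug. All libraries came from 1 cell line, and the drug was given at 1 dose and for 1 time. No dose or time is listed for the control libraries. The labels number the libraries 0, 1 and 2 in each group but do not state whether each came from its own culture, so each p-value is set against the spread among these libraries alone, and that spread may be purely technical.

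Chaperones hold proteins in foldable states and carry them through cycles of binding and release. HSP70 proteins bind short exposed stretches of a chain, J proteins of the DNAJ families deliver clients and start ATP hydrolysis, HSP110 proteins exchange the nucleotide, and HSP90 proteins act late on clients such as kinases and steroid receptors. Chaperonins enclose whole chains in a barrel, small heat shock proteins hold unfolded chains without ATP, and HSF1 drives many of these genes from heat shock elements, inverted repeats of a GAA unit in their promoters. In melanoma, HSP90 is known for holding oncogenic kinases in an active form.

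The promoter stretches below were picked from chaperone genes because they hold the letters of a heat shock element, and they do not stand for all members. They come from RefSeq promoter windows on GRCh38.p14, each from 250 bases before to 50 bases after a start site, and are written 5′ to 3′ on the strand of the gene. Capitals mark either 3 alternating units in a row (GAANNTTCNNGAA or TTCNNGAANNTTC, each the reverse complement of the other) or, for the last 3 genes, a pair of units (GAANNTTC, which reads the same on both strands). In fluvastatin cells HSP90AA1, HSP90AB1, HSPD1 and DNAJA1 fell, HSPB1 rose, and HSPA8, HSPA1A and HSPA1B did not pass the test (limma, adjusted p below 0.05 over all tested genes).
HSP90AA1, chr14:102087045-102087294, minus strand: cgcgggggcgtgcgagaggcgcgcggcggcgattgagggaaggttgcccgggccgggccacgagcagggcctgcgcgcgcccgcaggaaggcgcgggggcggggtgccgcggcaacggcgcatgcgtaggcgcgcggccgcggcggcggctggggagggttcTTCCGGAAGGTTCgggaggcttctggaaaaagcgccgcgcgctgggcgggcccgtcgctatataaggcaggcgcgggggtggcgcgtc
HSP90AB1, chr6:44247693-44247942, plus strand: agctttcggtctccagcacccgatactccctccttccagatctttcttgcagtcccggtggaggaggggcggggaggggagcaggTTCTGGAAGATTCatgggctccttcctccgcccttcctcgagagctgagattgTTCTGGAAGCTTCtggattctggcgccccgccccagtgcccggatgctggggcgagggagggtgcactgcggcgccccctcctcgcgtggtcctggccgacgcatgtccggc
HSPA8, chr11:123062137-123062386, minus strand: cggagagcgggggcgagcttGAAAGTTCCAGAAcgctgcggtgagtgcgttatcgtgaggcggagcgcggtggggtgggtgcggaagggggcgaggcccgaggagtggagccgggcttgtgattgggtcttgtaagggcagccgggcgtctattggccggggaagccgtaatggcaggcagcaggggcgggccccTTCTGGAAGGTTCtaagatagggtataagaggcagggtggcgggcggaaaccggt
HSPD1, chr2:197499841-197500090, minus strand: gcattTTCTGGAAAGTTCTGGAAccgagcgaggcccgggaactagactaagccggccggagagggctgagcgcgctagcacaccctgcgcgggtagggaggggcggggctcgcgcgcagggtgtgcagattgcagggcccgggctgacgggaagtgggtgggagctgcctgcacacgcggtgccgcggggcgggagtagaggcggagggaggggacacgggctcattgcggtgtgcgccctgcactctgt
DNAJA1, chr9:33025173-33025292, plus strand: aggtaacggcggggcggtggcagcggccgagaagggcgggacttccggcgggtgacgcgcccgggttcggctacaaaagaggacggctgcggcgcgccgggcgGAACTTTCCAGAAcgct
HSPA1A, chr6:31815391-31815490, plus strand: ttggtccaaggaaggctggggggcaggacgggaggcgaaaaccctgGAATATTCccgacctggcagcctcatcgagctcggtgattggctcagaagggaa
HSPA1B, chr6:31827587-31827686, plus strand: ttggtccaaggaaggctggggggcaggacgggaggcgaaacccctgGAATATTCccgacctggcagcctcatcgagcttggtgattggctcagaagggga
HSPB1, chr7:76302445-76302544, plus strand: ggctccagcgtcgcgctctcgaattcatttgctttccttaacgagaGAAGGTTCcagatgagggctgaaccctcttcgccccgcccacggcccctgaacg

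The search covered both strands for the 3-unit forms and for the pairs GAANNTTC and TTCNNGAA, and every 3-unit match holds 2 overlapping pairs. Of the 64 coding members, 56 had a window in the table, and 7 of these 56 held a 3-unit match, against 166 of 27305 symbols (0.608%) and 172 of 35116 windows (0.49%) in the whole table. The 7 were HSP90AA1, HSP90AB1, HSPD1 and DNAJA1, which fell, HSPA8 and DNAJB6, which did not pass, and HSPA6, which was below the level needed for a test. A pair occurred in 19 of the 56 members (33.9%), against 16.2% of all symbols, and in 20 of their 74 windows (27%), against 13.5% of all windows. Of the 13 coding members that fell, 12 had a window, and 4 of the 12 held a 3-unit match. So did 2 of the 32 members with a window that did not pass and 0 of the 3 that rose. Pairs occurred in 6 of the 12, in 8 of the 32 and in 2 of the 3. Of 9427 tested genes with a window, 46 (0.488%) held a 3-unit match and 13.8% a pair. Whether matches go with the calls was not tested. HSP90AB1 and HSPA8 each held 2 separate 3-unit matches, at -165 to -153 and -112 to -100 from the HSP90AB1 start site and at -230 to -218 and -55 to -43 from that of HSPA8. In HSP90AA1 the match lay at -88 to -76, and in DNAJA1 it lay past the start site, at 4 to 16. In HSPD1, matches at -245 to -233 and -240 to -228 overlapped, so 4 units stood in a row. The HSPD1 start site with these matches and the RefSeq HSPE1 start site lie 539 bases apart on opposite strands. The HSPD1 matches lie 294 to 311 bases from that HSPE1 start site, outside the HSPE1 window. HSPD1 has another start site, at 197500274, closer to that of HSPE1 at 197500379, and its window held no match. The HSPA1A and HSPA1B windows were identical at 277 of 299 aligned bases (92.6%). In GENCODE release 29 some transcripts of these genes start further upstream. All 13 capital bases in HSP90AA1 and in DNAJA1 and 13 of the 26 in HSPA8 thus lie in a noncoding exon of their own gene. The 18 capital bases in HSPD1 lie in no HSPD1 exon but in an exon of HSPE1, which begins at 197499994 in that release. None of the stretches holds coding bases. The windows of HSPH1, HSPE1, HSPA4, DNAJA3, DNAJC2 and DNAJC11, which fell, and of DNAJB2, which rose, held neither a 3-unit match nor a pair. A match describes letters and is not a measured binding site. HSPA12B, HSPA14, HSPB11, DNAJC1, DNAJC22, DNAJC24, DNAJC5B and HSF1 had no window in the table.

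The members' RNA summed to less in fluvastatin than in control cells, a sum that was described and not tested. Levels are in FPKM, that is, fragments counted for a gene divided by its length in kilobases and by the number of fragments mapped in the library, so levels of different genes can be compared per length. The 73 members summed to 4564.3, 4864.2 and 4801.3 FPKM in fluvastatin libraries 0, 1 and 2, against 7232.3, 6530.7 and 6020.9 FPKM in control libraries 0, 1 and 2. This was 0.663%, 0.667% and 0.676% of the FPKM sum of the fluvastatin libraries and 1.01%, 0.952% and 0.843% of that of the control libraries. The groups did not overlap in either measure. In RNA from bulk cells, fewer cells expressing a gene and less RNA per cell cannot be told apart.

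Any gene that reached 1 FPKM in 3 or more of the 6 libraries entered a limma fit on log2(FPKM + 1), and those with a Benjamini-Hochberg adjusted p below 0.05 over all tested genes are said to have risen or fallen. Of the 73 members, 55 were tested, of which 15 fell, 4 rose and 36 did not pass. This was 34.5% called, with 27.3% that fell and 7.27% that rose, against 27.7% of all 14344 tested genes, of which 13.6% fell and 14.1% rose. The members' share of calls was thus not far above that of all genes, and it lay mostly on the falling side, where all genes were nearly even. The median log2 fold change was -0.11 over the tested members and -0.01 over all tested genes. All 3 fluvastatin libraries lay below all 3 controls in 22 tested members and above them in 7, against 22.9% and 21.9% of all tested genes. HSP90AA2P was the only tested member that reached 1 FPKM in all libraries of one group, the controls, and not of the other. The J proteins and the other members differed in their counts: of 34 tested DNAJ genes, 4 fell and 2 rose with a median of -0.02, and of the 21 other tested members, 11 fell and 2 rose with a median of -0.47. The difference between these sets was not tested.

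**Figure D1:**
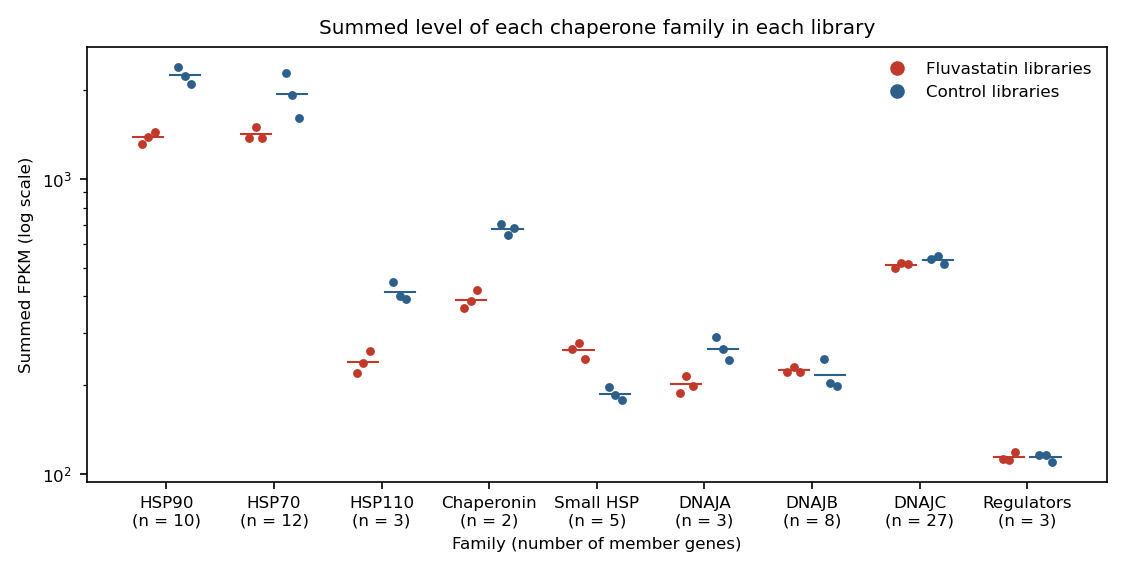
Summed FPKM of each chaperone family in each library (log axis), with fluvastatin libraries in red on the left and control libraries in blue on the right of each pair; dots are libraries and lines are group means. The HSP90 sums were 1318.9 to 1442.1 FPKM in fluvastatin and 2098.9 to 2402.6 FPKM in control libraries, while the small heat shock proteins ran the other way, at 244.9 to 277.7 FPKM in fluvastatin and 177.8 to 196.8 FPKM in control libraries.

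Sequencing depth differed with treatment. The steps between low FPKM values gave depths of 1.27, 1.51 and 1.40 for fluvastatin libraries 0, 1 and 2, and of 1.19 and 0.964 for control libraries 1 and 2, relative to 1 for control library 0. Depth and treatment therefore cannot be told apart. With depth as a covariate, limma called 0.502% of all tested genes and 0 of the members. At an unadjusted p below 0.05 in that fit, 1 of the 55 tested members rose and 9 fell, against 1515 and 1244 of all 14344 tested genes. The 19 members called without the covariate kept their direction with larger standard errors, such as -1.28 ± 0.26 for HSPH1 and -0.99 ± 0.22 for HSP90AA1, although DNAJC1 came to 0.003. Without that covariate, 13 calls held under each of the 13 other alternatives: HSP90AA1, HSP90AB1, HSPA4, HSPA4L, HSPH1, HSPD1, HSPE1, HSPA14, DNAJA3 and DNAJC2, which fell, and HSPB1, HSPB8 and DNAJB2, which rose. Of the melanoma markers, AXL stood at 304.7 to 324.9 FPKM in fluvastatin and 320.7 to 342.9 FPKM in control libraries, and SOX10 at 67.1 to 75.4 FPKM in fluvastatin and 20.1 to 26.1 FPKM in control libraries. NGFR was at 23.7 to 27.0 FPKM in fluvastatin and 14.5 to 18.5 FPKM in control libraries, and SOX9 at 23.0 to 24.7 FPKM in fluvastatin and 41.6 to 42.1 FPKM in control libraries. SOX10 and NGFR were thus higher and SOX9 lower in every fluvastatin library, while AXL overlapped. The lineage factor MITF was at 6.10 to 7.04 FPKM in fluvastatin and 6.66 to 7.77 FPKM in control libraries, whereas S100B and the pigment genes PMEL, TYRP1 and DCT were under 1 FPKM in every library. PECAM1, CDH5, EPCAM and CDH1, markers of endothelial and epithelial cells, were at or below 0.125 FPKM in every library, whereas KRT18, a keratin, was at 344.9 to 386.9 FPKM in fluvastatin and 416.7 to 480.6 FPKM in control libraries. Of the fibroblast markers, COL1A1 was at 4.53 to 6.76 FPKM in fluvastatin and 8.24 to 11.8 FPKM in control libraries, PDGFRB at 4.91 to 5.94 FPKM in fluvastatin and 6.22 to 10.5 FPKM in control libraries, and COL1A2 at or below 0.0638 FPKM in every library. MLANA, TYR and the leukocyte markers PTPRC and CD3E were not analysed here. The part of any other cell type in these results was not tested.

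**Figure D2:**
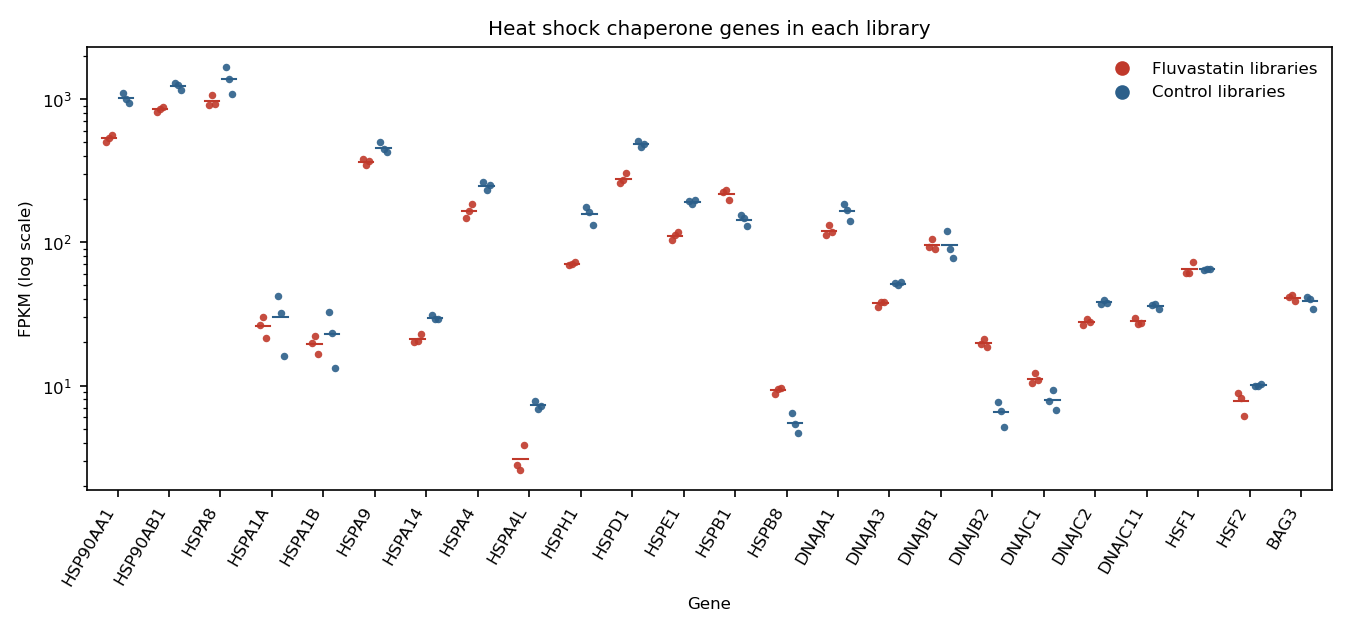
FPKM (log axis) of 24 chaperone genes in each library, fluvastatin in red on the left and control in blue on the right of each gene; dots are libraries 0, 1 and 2 and lines are means. The groups are apart for HSP90AA1, HSPH1, HSPA4L, HSPD1 and DNAJB2, and they overlap for HSPA1A, HSPA1B, DNAJB1, HSF1 and BAG3.

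Both coding HSP90 genes fell, against 13.6% of all tested genes, with a larger fold change in the stress-inducible form. HSP90AA1, the inducible cytosolic HSP90 alpha (chromosome 14, 102080738 to 102139699, minus strand, GENCODE release 29 on GRCh38), stood at 502.9, 536.0 and 561.6 FPKM in fluvastatin libraries, against 1099.9, 994.3 and 929.6 FPKM in control libraries. Even the highest fluvastatin library lay well under the lowest control. Its mean was 533.5 ± 29.4 FPKM in fluvastatin and 1007.9 ± 85.9 FPKM in control cells (SD, n = 3 each), 1.89-fold lower, with a log2 fold change of -0.91 ± 0.10 (SE; limma adjusted p = 0.00169). HSP90AB1, the constitutive HSP90 beta (chromosome 6, 44246166 to 44253888, plus strand), was at 812.0, 847.4 and 876.3 FPKM in fluvastatin libraries, against 1294.5, 1242.8 and 1162.1 FPKM in control libraries. It was 1.46-fold lower (log2 fold change -0.54 ± 0.09; limma adjusted p = 0.00623), and again the groups did not overlap. Among all genes by mean FPKM, HSP90AA1 ranked 171 in fluvastatin and 65 in control cells, and HSP90AB1 ranked 92 in fluvastatin and 46 in control cells.

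The ratio of beta to alpha was compared within each library. HSP90AB1 over HSP90AA1 was 1.62, 1.58 and 1.56 in fluvastatin libraries and 1.18, 1.25 and 1.25 in control libraries. The ratio was higher in every fluvastatin library, and the exact two-sided permutation test gave p = 0.1, the smallest that 3 against 3 libraries allow. The 8 HSP90 pseudogenes were all low. HSP90AA2P, at 1.18, 0.884 and 1.22 FPKM in fluvastatin libraries and 1.93, 2.27 and 2.05 FPKM in control libraries, fell (limma adjusted p = 0.00956). HSP90AB3P, at 1.17, 1.64 and 1.61 FPKM in fluvastatin libraries and 2.47, 2.13 and 2.90 FPKM in control libraries, also fell (limma adjusted p = 0.0275, with a range of 0.0242 to 0.424 over the alternatives), a call lost without any 1 of the fluvastatin libraries or control library 0 or 2 (adjusted p from 0.0519 to 0.0814). Processed copies share sequence with HSP90AA1 and HSP90AB1, and their reads may come from the parent genes, so these 2 calls are uncertain. The other 6 pseudogenes, HSP90AA4P, HSP90AA6P, HSP90AB2P, HSP90AB4P, HSP90AB6P and HSP90AB7P, were below the level for a test.

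All 3 HSP110 genes fell, against 13.6% of all tested genes, and 2 of them showed the largest falls of the tested members. HSPH1, the stress-inducible nucleotide exchange factor of HSP70 (chromosome 13, 31134974 to 31162388, minus strand), stood at 69.7, 70.4 and 72.5 FPKM in fluvastatin libraries, against 176.1, 162.9 and 132.2 FPKM in control libraries. The fluvastatin libraries were nearly equal, while the controls spread 1.33-fold. HSPH1 averaged 70.9 ± 1.43 FPKM in fluvastatin and 157.1 ± 22.5 FPKM in control cells (SD, n = 3 each), 2.22-fold lower (log2 fold change -1.13 ± 0.12; limma adjusted p = 0.00166). HSPA4L, a paralog best known from testis (chromosome 4, 127781821 to 127840733, plus strand), was low, at 2.78, 2.59 and 3.85 FPKM in fluvastatin libraries and 7.84, 6.91 and 7.25 FPKM in control libraries. It was 2.39-fold lower on the FPKM scale (log2 fold change -1.04 ± 0.13; limma adjusted p = 0.00289). HSPA4, the constitutive member known as APG-2 (chromosome 5, 133051962 to 133106449, plus strand), was at 147.9, 164.3 and 184.4 FPKM in fluvastatin libraries and 261.9, 231.8 and 252.3 FPKM in control libraries. It was 1.502-fold lower (log2 fold change -0.59 ± 0.11; limma adjusted p = 0.0109), and no fluvastatin library of any HSP110 gene reached a control.

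The HSP70 family was less uniform, with 2 of 6 tested members that fell and 4 that did not pass, against 13.6% of all tested genes that fell. HSPA8, the constitutive HSC70 and the most abundant member (chromosome 11, 123057489 to 123063230, minus strand), stood at 903.0, 1057.3 and 921.9 FPKM in fluvastatin libraries, against 1667.4, 1369.6 and 1087.0 FPKM in control libraries. The groups were apart by a narrow margin, between fluvastatin library 1 and control library 2. The means were 960.7 ± 84.2 FPKM in fluvastatin and 1374.7 ± 290.2 FPKM in control cells (SD, n = 3 each), with a log2 fold change of -0.50 ± 0.17 (limma adjusted p = 0.0678). Without control library 2 the change was -0.657 (limma adjusted p = 0.0229), and with trended, robust variances the adjusted p was 0.0351, over a range of 0.0229 to 0.314 in the alternatives.

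The inducible HSP70 genes HSPA1A and HSPA1B lie next to each other on chromosome 6 (31815464 to 31817946 and 31827735 to 31830255, plus strand), and their near-identical transcripts may share reads. HSPA1A was at 26.5, 30.3 and 21.5 FPKM in fluvastatin libraries and 41.9, 31.9 and 16.2 FPKM in control libraries. HSPA1B was at 19.9, 22.2 and 16.6 FPKM in fluvastatin libraries and 32.5, 23.2 and 13.2 FPKM in control libraries. In both genes the controls span the fluvastatin values on either side, with log2 fold changes of -0.11 ± 0.33 and -0.14 ± 0.30 (limma adjusted p = 0.839 and 0.76). The direction rested on single libraries: without control library 0 the changes were 0.177 and 0.140, and without control library 2 they were -0.485 and -0.480.

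Of the remaining HSP70 genes, HSPA9 and HSPA14 fell. HSPA9, the mitochondrial HSP70 mortalin (chromosome 5, 138553756 to 138575724, minus strand), stood at 379.7, 347.5 and 367.3 FPKM in fluvastatin libraries and 497.2, 449.4 and 427.4 FPKM in control libraries. It fell 1.26-fold (log2 fold change -0.33 ± 0.09; limma adjusted p = 0.0445), a call that was lost in 11 of 14 alternatives (adjusted p from 0.0149 to 0.571), among them leaving out any 1 of the fluvastatin libraries or control library 0 or 1 (0.0883 to 0.122). HSPA14, an HSP70 that works at the ribosome (chromosome 10, 14838164 to 14871741, plus strand), was at 20.1, 20.5 and 22.9 FPKM in fluvastatin libraries and 31.2, 29.03 and 28.95 FPKM in control libraries. It fell 1.40-fold (limma adjusted p = 0.0116), with no overlap between groups. HSPA13, a microsomal HSP70-like ATPase, averaged 25.9 ± 2.94 FPKM in fluvastatin and 24.9 ± 5.83 FPKM in control cells (SD, n = 3 each; limma adjusted p = 0.789). HSPA2, an HSP70 best known from germ cells, was below the level for a test, at 0.681, 0.738 and 0.800 FPKM in fluvastatin libraries and 1.18, 0.858 and 1.05 FPKM in control libraries. HSPA12A, HSPA12B, HSPA1L, HSPA6 and HSPA7 were also too low for a test. HSPA12A, singled out after its values were seen, was at 0.421, 0.323 and 0.527 FPKM in fluvastatin libraries and 0.805, 1.09 and 0.871 FPKM in control libraries, and it was called lower when no level filter was used.

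The mitochondrial chaperonin genes fell together. HSPD1, which forms the chaperonin barrel (chromosome 2, 197486581 to 197516737, minus strand), stood at 260.5, 271.7 and 302.2 FPKM in fluvastatin libraries, against 511.6, 459.2 and 482.7 FPKM in control libraries. HSPE1, the co-chaperonin that caps it (chromosome 2, 197499994 to 197503457, plus strand), was at 103.6, 112.3 and 117.7 FPKM in fluvastatin libraries, against 193.6, 183.8 and 197.2 FPKM in control libraries. Both groups of values were tight and far apart in each gene. HSPD1 was 1.74-fold lower (log2 fold change -0.80 ± 0.10; limma adjusted p = 0.00242) and HSPE1 was 1.72-fold lower (-0.78 ± 0.09; limma adjusted p = 0.00197). The ratio of HSPD1 to HSPE1 was 2.52, 2.42 and 2.57 in fluvastatin libraries and 2.64, 2.498 and 2.45 in control libraries, with overlapping groups (exact permutation p = 0.7). The annotated spans of the 2 genes overlap on opposite strands, and the strand setting of the counting was not given in the sources used here. Of 8 members picked as mitochondrial, a list that may not be complete, 5 fell, 0 rose and 3 did not pass. Their median log2 fold change was -0.34. Of all 14344 tested genes, 13.6% fell and 14.1% rose. The other 3 that fell were HSPA9, DNAJA3 and DNAJC11, and the 3 that did not pass were DNAJC15 and DNAJC19, J proteins of the inner-membrane import motor, and DNAJC30. HSPA9 stood at 1.46, 1.28 and 1.22 times HSPD1 in fluvastatin libraries and at 0.972, 0.979 and 0.885 times in control libraries (exact permutation p = 0.1, the smallest possible).

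**Figure D3:**
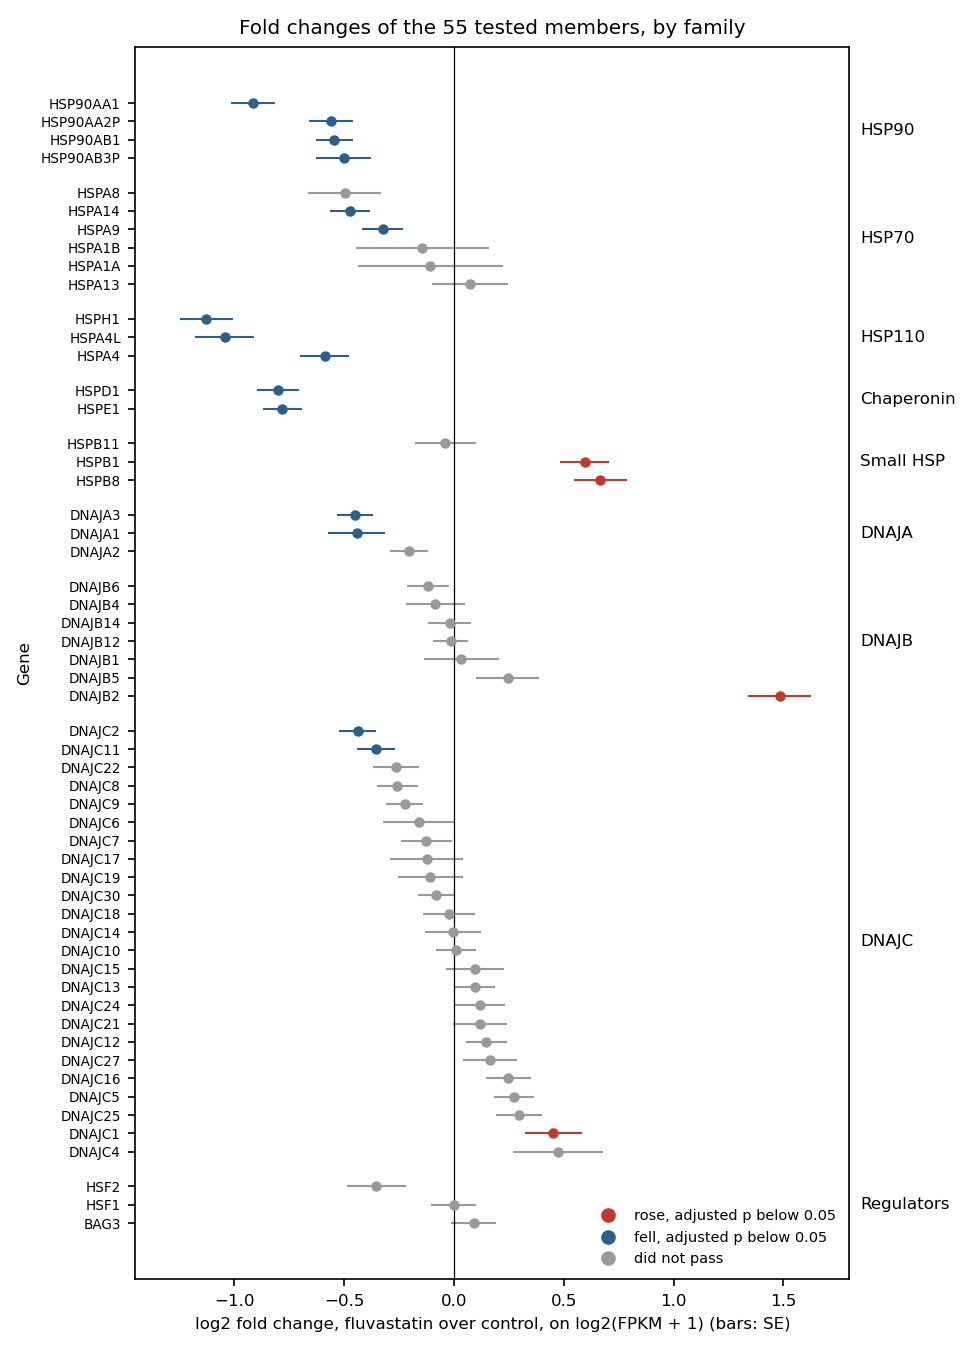
Log2 fold change of each of the 55 tested members, fluvastatin over control, on the log2(FPKM + 1) scale, with bars for the standard error, grouped by family; blue fell, red rose and grey did not pass. HSP90, HSP110 and chaperonin genes lie left of 0, HSPB1, HSPB8 and DNAJB2 lie right of it, and most DNAJB and DNAJC genes lie near it.

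Of the small heat shock proteins, HSPB1 and HSPB8 rose, unlike the HSP90, HSP110 and chaperonin genes. HSPB1, a holdase that also binds actin filaments (chromosome 7, 76302544 to 76304295, plus strand), was at 224.2, 231.0 and 197.8 FPKM in fluvastatin libraries and 155.8, 146.6 and 129.1 FPKM in control libraries. It was 1.51-fold higher (log2 fold change 0.60 ± 0.11; limma adjusted p = 0.0103). HSPB8, the partner of BAG3 in chaperone-assisted autophagy (chromosome 12, 119178642 to 119221131, plus strand), was at 8.74, 9.48 and 9.65 FPKM in fluvastatin libraries and 6.45, 5.42 and 4.69 FPKM in control libraries. It was 1.68-fold higher (log2 fold change 0.67 ± 0.12; limma adjusted p = 0.00918). In both genes every fluvastatin library lay above every control. HSPB11 averaged 35.4 ± 2.89 FPKM in fluvastatin and 36.6 ± 6.32 FPKM in control cells (SD, n = 3 each; limma adjusted p = 0.862), and HSPB6 and HSPB9 were too low for a test.

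The J proteins of the DNAJA class, which carry the full bacterial-type domain order, lay lower in fluvastatin libraries in all 3 genes, of which 2 passed. Among all tested genes, 22.9% lay below every control and 13.6% fell. DNAJA1, a main partner of HSPA8 (chromosome 9, 33025211 to 33039907, plus strand), was at 111.8, 131.7 and 117.5 FPKM in fluvastatin libraries and 186.3, 167.5 and 140.1 FPKM in control libraries. It fell 1.37-fold (log2 fold change -0.44 ± 0.13; limma adjusted p = 0.0465), a call lost in 9 of 14 alternatives (0.0194 to 0.24), among them leaving out any 1 of the fluvastatin libraries or control library 0 or 1 (0.0645 to 0.137). DNAJA3, the mitochondrial J protein that serves HSPA9 (chromosome 16, 4425805 to 4456775, plus strand), was at 35.6, 38.4 and 38.2 FPKM in fluvastatin libraries and 51.7, 50.0 and 52.9 FPKM in control libraries. It fell 1.38-fold (log2 fold change -0.45 ± 0.08; limma adjusted p = 0.00943), with little spread in either group. DNAJA2 averaged 43.0 ± 1.86 FPKM in fluvastatin and 49.7 ± 2.59 FPKM in control cells (SD, n = 3 each; limma adjusted p = 0.128).

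Of 7 tested DNAJB genes 1 rose and 6 did not pass, against 14.1% of all tested genes that rose. DNAJB2, a J protein with ubiquitin-interacting motifs that is best known from neurons (chromosome 2, 219279267 to 219286900, plus strand), was at 19.5, 21.3 and 18.6 FPKM in fluvastatin libraries and 7.74, 6.61 and 5.15 FPKM in control libraries. This was the largest change of any tested member, 3.04-fold higher, with a log2 fold change of 1.48 ± 0.14 (limma adjusted p = 0.00122). DNAJB1, the stress-inducible J protein of cytosolic HSP70 (chromosome 19, 14514770 to 14529770, minus strand), stood at 92.6, 106.0 and 90.4 FPKM in fluvastatin libraries and 119.6, 89.5 and 77.3 FPKM in control libraries. The groups overlapped, with a log2 fold change of 0.03 ± 0.17 (limma adjusted p = 0.902). Its sign changed without control library 1 (-0.001) or 2 (-0.105), without fluvastatin library 1 (-0.037) and with depth as a covariate (-0.068). DNAJB4, DNAJB5, DNAJB6, DNAJB12 and DNAJB14 had log2 fold changes between -0.12 (DNAJB6, an inhibitor of aggregation) and 0.24 (DNAJB5), and DNAJB13 was too low for a test.

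The DNAJC class, which shares only the J domain, was close to balanced: of 24 tested genes 2 fell, 1 rose and 21 did not pass, with a median log2 fold change of 0.00. Over all tested genes, 13.6% fell and 14.1% rose. DNAJC2, the J protein that works with HSPA14 at the ribosome (chromosome 7, 103312474 to 103344873, minus strand), stood at 26.7, 29.2 and 27.9 FPKM in fluvastatin libraries and 37.1, 39.8 and 37.5 FPKM in control libraries. It fell 1.37-fold (log2 fold change -0.44 ± 0.08; limma adjusted p = 0.0115), as did its partner HSPA14. DNAJC11, of the mitochondrial membrane contact complex (chromosome 1, 6634168 to 6701924, minus strand), stood at 29.6, 27.0 and 27.5 FPKM in fluvastatin libraries and 36.8, 37.2 and 34.5 FPKM in control libraries. It fell 1.29-fold (limma adjusted p = 0.0239), a call lost in 7 of 14 alternatives (0.0126 to 0.385), among them leaving out any 1 of the fluvastatin libraries or control library 0 or 1 (0.0502 to 0.0778). DNAJC1, a J protein of the endoplasmic reticulum membrane (chromosome 10, 21756537 to 22003769, minus strand), stood at 10.5, 12.2 and 10.99 FPKM in fluvastatin libraries and 7.84, 9.35 and 6.71 FPKM in control libraries. It rose 1.41-fold (limma adjusted p = 0.0424), a call lost in 9 of 14 alternatives (0.0294 to 0.996), among them leaving out any 1 of the fluvastatin libraries or control library 0 or 2 (0.0795 to 0.118).

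Among the 21 DNAJC genes that did not pass, log2 fold changes ran from -0.26 (DNAJC22) to 0.47 (DNAJC4). DNAJC5, the cysteine string protein of exocytic vesicles, averaged 26.0 ± 0.858 FPKM in fluvastatin and 21.4 ± 1.63 FPKM in control cells (SD, n = 3 each; limma adjusted p = 0.0678). DNAJC7, a co-chaperone that binds both HSP70 and HSP90, was the most abundant of the class, at 91.0 ± 4.21 FPKM in fluvastatin and 99.9 ± 13.5 FPKM in control cells (SD, n = 3 each; limma adjusted p = 0.464). DNAJC9, a histone co-chaperone, averaged 13.4 ± 0.824 FPKM in fluvastatin and 15.8 ± 0.33 FPKM in control cells (SD, n = 3 each; limma adjusted p = 0.0944). DNAJC5 and DNAJC9 were named after their values were seen. The groups of the other DNAJC genes that did not pass were apart in DNAJC8, DNAJC16, DNAJC22, DNAJC25 and DNAJC30 and overlapped elsewhere. DNAJC28, DNAJC5B and DNAJC5G were too low for a test. DNAJC28 was at 0.505, 0.466 and 0.595 FPKM in fluvastatin libraries and 0.102, 0.164 and 0.0545 FPKM in control libraries, and it was called higher when no level filter was used. It was singled out after its values were seen.

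The regulators did not pass. HSF1, the main transcription factor of the heat shock response, was at 61.3, 60.6 and 73.4 FPKM in fluvastatin libraries and 64.5, 65.2 and 65.1 FPKM in control libraries. Fluvastatin libraries 0 and 1 lay below every control and fluvastatin library 2 above every control. The log2 fold change was 0.00 ± 0.10 (limma adjusted p = 0.992), and -0.090 without fluvastatin library 2. HSF2, a related factor that forms complexes with HSF1 (chromosome 6, 122399546 to 122433119, plus strand), was at 8.91, 8.18 and 6.18 FPKM in fluvastatin libraries and 10.0, 9.89 and 10.3 FPKM in control libraries. The groups were apart, but the change of -0.35 ± 0.13 did not pass (limma adjusted p = 0.0945). BAG3, a nucleotide exchange factor of HSP70 and a known HSF1 target (chromosome 10, 119651370 to 119677819, plus strand), was at 41.5, 42.8 and 38.9 FPKM in fluvastatin libraries and 41.4, 40.4 and 34.1 FPKM in control libraries. Its groups overlapped (log2 fold change 0.09 ± 0.10; limma adjusted p = 0.571). These are RNA levels, and the activity of HSF1 as a protein was not measured.

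Several HSP70 and DNAJ genes spread more among the control than among the fluvastatin libraries. Control library 0 was the highest and control library 2 the lowest in 20 of the 55 tested members (36.4%), against 3012 of all 14344 tested genes (21%). From the highest to the lowest library, HSPA1A spread 1.41-fold in fluvastatin and 2.6-fold in control cells, and HSPA1B 1.34-fold in fluvastatin and 2.46-fold in control cells. HSPA8 spread 1.17-fold in fluvastatin and 1.53-fold in control cells, and DNAJB1 1.17-fold in fluvastatin and 1.55-fold in control cells. The SD of HSPA1A over the controls, on the log2(FPKM + 1) scale, was above that of 97.3% of all tested genes, and that of HSPA8 above 84.5%. HSP90AA1, also inducible, spread 1.12-fold in fluvastatin and 1.18-fold in control cells. HSPE1 spread 1.14-fold in fluvastatin and 1.07-fold in control cells.

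Ratios between members within a library remove a factor common to both genes. The 10 ratios compared were chosen after the values were seen, and p-values were adjusted over the 10. HSPA1A over HSPA1B stayed within 1.30 to 1.36 in fluvastatin and 1.23 to 1.37 in control libraries (exact permutation p = 0.5). DNAJA1 over HSPA8 was 0.124, 0.125 and 0.127 in fluvastatin libraries and 0.112, 0.122 and 0.129 in control libraries (exact permutation p = 0.5). These pairs overlapped between the groups. HSPH1 over HSPA8 was 0.0772, 0.0666 and 0.0786 in fluvastatin libraries, below the 0.106, 0.119 and 0.122 in control libraries. DNAJB1 over HSPA8 was 0.103, 0.1003 and 0.0981 in fluvastatin libraries, above the 0.0717, 0.0653 and 0.0711 in control libraries, although DNAJB1 alone overlapped between the groups. DNAJB2 over HSPA8 was 0.0206 ± 0.000812 in fluvastatin and 0.00474 ± 9.33e-05 in control libraries (SD, n = 3 each; exact permutation p = 0.1). For these 3 ratios and for HSP90AB1 over HSP90AA1 and HSPA9 over HSPD1 the groups were fully apart, with the smallest possible exact permutation p of 0.1 and 0.2 after adjustment. HSPA8 over HSPA1A and HSPA4 over HSPA8 gave p = 0.2 and 0.6 by the same exact test.

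**Figure D4:**
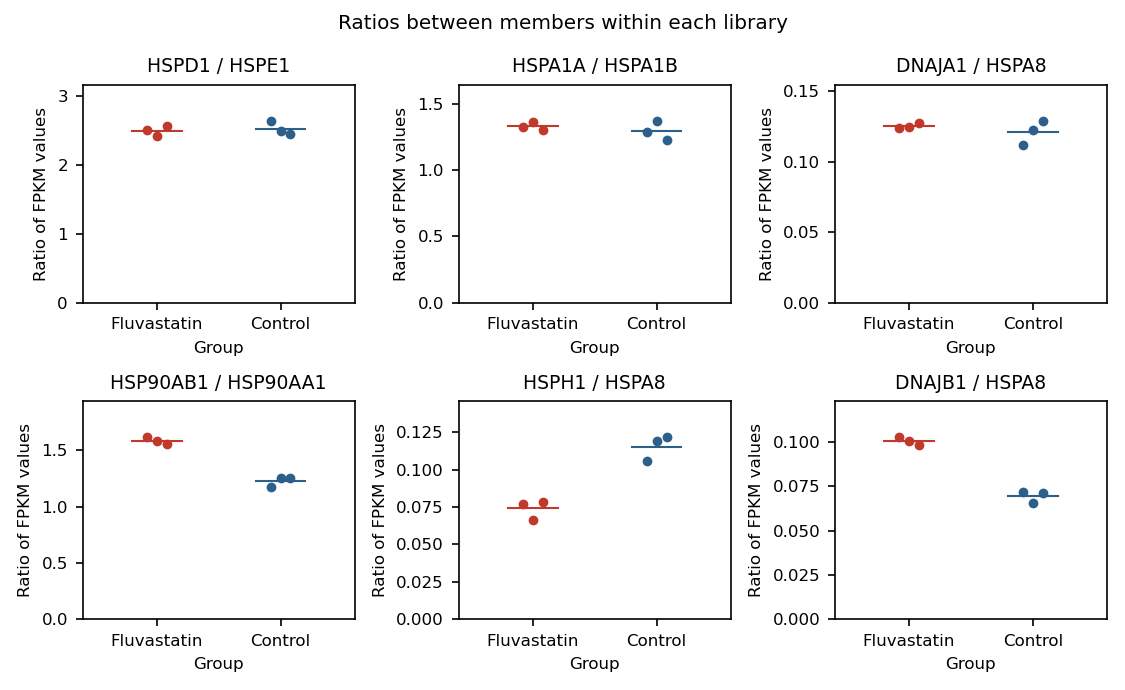
Ratio of the FPKM values of 2 members within each library, from 0 on a linear axis, fluvastatin on the left and control on the right of each panel; dots are libraries and lines are means. The upper 3 ratios overlap between the groups, and the lower 3 (HSP90AB1/HSP90AA1, HSPH1/HSPA8 and DNAJB1/HSPA8) do not.

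Co-chaperones and other genes of the wider network, taken from a list of 45 with 43 in the table, also held more falls than rises. Among the 42 that could be tested, 9 fell and 3 rose, while 30 did not pass, which is 21.4% that fell and 7.14% that rose, against 13.6% and 14.1% of all tested genes. The median log2 fold change was -0.14, against -0.01 over all tested genes. CRYAB was below the level for a test, and CRYAA and HSF5 were not analysed here. FKBP4, an immunophilin of steroid receptor complexes, was at 41.0, 43.4 and 45.6 FPKM in fluvastatin libraries and 93.4, 93.5 and 81.3 FPKM in control libraries, 2.06-fold lower (limma adjusted p = 0.00114). FKBP5, its paralog, fell 1.68-fold (limma adjusted p = 0.00286), and STIP1, the adaptor that links HSP70 to HSP90, fell 1.59-fold to 172.9 ± 5.96 FPKM in fluvastatin, against 275.3 ± 29.8 FPKM in control cells (SD, n = 3 each; limma adjusted p = 0.00641). The HSP90 co-chaperones CHORDC1 and AHSA1, an activator of its ATPase, fell 1.55-fold and 1.39-fold (limma adjusted p = 0.00688 and 0.0139). PPID, a cyclophilin of HSP90 complexes, fell 1.51-fold (limma adjusted p = 0.0181), and PTGES3, the p23 co-chaperone, also fell (limma adjusted p = 0.0209). Other HSP90 partners of the list did not pass, among them CDC37, which brings it kinases (limma adjusted p = 0.963), SUGT1, UNC45A and STUB1. TRAP1, the mitochondrial HSP90, was at 104.4, 117.4 and 112.0 FPKM in fluvastatin libraries and 169.2, 166.8 and 159.2 FPKM in control libraries, 1.48-fold lower (limma adjusted p = 0.00546). BAG2, an HSP70 nucleotide exchange factor, fell 1.66-fold (limma adjusted p = 0.00569).

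Of the genes of this list that rose, ZFAND2A, a proteasome-associated protein induced by arsenite, rose 1.72-fold (limma adjusted p = 0.0176), and IER5, an immediate early gene, also passed the test.

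The 4 endoplasmic reticulum chaperones left out by name lay higher in fluvastatin cells. HSPA5, the HSP70 of that compartment, was at 272.4, 261.0 and 279.9 FPKM in fluvastatin libraries and 173.0, 159.0 and 157.1 FPKM in control libraries, with a log2 fold change of 0.73 ± 0.09 (limma adjusted p = 0.00218). The J proteins DNAJB9 and DNAJC3 also rose (limma adjusted p = 0.0016 and 0.00952), and DNAJB11 had a log2 fold change of 0.36 ± 0.11 (limma adjusted p = 0.0539). In all 4 genes every fluvastatin library was above every control, as in 21.9% of all tested genes, while 22.9% were below. Of the 55 tested members, 22 lay below every control and 7 above. Those below held HSPA8, which did not pass, and HSPA9, whose call was lost in most alternatives. Those above held HSPB1, HSPB8 and DNAJB2, and HSPA1A and HSPA1B overlapped. The 4 endoplasmic reticulum genes left out by name do not stand for the whole compartment. HSP90B1, its HSP90, had a log2 fold change of -0.02 ± 0.09 (limma adjusted p = 0.888). Of the endoplasmic reticulum members named at the start, DNAJC1 rose, and DNAJC10, HSPA13, DNAJB12 and DNAJB14 did not pass.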

How the data were processed

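STAR, Cufflinks and Cuffdiff were run by the authors on hg38, per the submitters' processing notes; versions, annotation, strand setting and rescaling are not given in the sources used here. The header of the deposited table names no unit, and the authors' values were taken as FPKM, the unit that these tools write; each library summed to 686133.2 to 729564.0. FPKM values carry no counts, so relative depth came from the mode of ratios between libraries of low values, in genes at 0 in at least 1 library, and no counting intervals are given. No pair of libraries shared more than 2 identical nonzero values.

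The 14344 genes that reached 1 FPKM in 3 or more libraries were fitted with limma 3.58.1 in R 4.3.3 on log2(FPKM + 1), which understates changes of low genes, two-sided, with trend and robust off and no replicate block. p-values were adjusted by Benjamini-Hochberg over all tested genes, threshold 0.05. Folds are ratios of mean FPKM. The fit was tested on simulated data.

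Members, gene lists and the rule for named genes (every member called, 18 fixed members, up to 10 called network genes with the smallest adjusted p) were chosen with earlier results of these data known. Results were recomputed with a pseudocount of 0.1, without the filter, with a minimum mean of 5 FPKM, and with trimmed mean of M-values (TMM) scaling, quantile normalization, trend and robust variances, a replicate block, depth as a covariate, and leaving out each library. A gene of the wider network list and a cell type marker are not reported here.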

Additional observations from a re-analysis of the deposited data

How the results depend on the processing

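Of the 26 named members with a test, each was refitted under up to 14 alternatives. With depth as a covariate, 59 genes rose and 13 fell over all genes, 0 members rose and 0 fell, and 0 genes of the wider network rose and 0 fell. At an unadjusted p below 0.05 in that limma fit, 1 member rose and 9 fell, and 2 network genes rose and 6 fell. Over all 14344 tested genes, 1515 rose and 1244 fell at that level. Every fluvastatin library was deeper than every control, so depth and treatment cannot be told apart. Leaving out 1 library at a time left 1274 to 1785 genes that rose and 1066 to 1631 that fell over all genes, 3 to 4 members that rose and 11 to 15 that fell, and 1 to 3 network genes that rose and 7 to 9 that fell. The lowest counts over all genes came without fluvastatin library 0, and 1 network gene rose without any 1 of the fluvastatin libraries; over all genes the falls also dropped by over 1.5 times to 1245 without control library 1, 1275 without fluvastatin library 1 and 1284 without fluvastatin library 2. With a replicate block, 1658 genes rose and 1496 fell, 5 members rose and 11 fell, and 3 network genes rose and 10 fell. Libraries of the same number did not deviate together (r = -0.00, 0.08 and 0.08 across genes), and not every library correlated best with its own number. The labels state no pairing, and correlations from 3 libraries per group cannot settle whether there was one. For HSPA1A the block lowered the standard error from 0.331 to 0.216. Without the block, pseudocount, filter and scaling left 3 to 5 members that rose and 13 to 14 that fell. The sign of HSF1 (-0.002) turned with TMM scaling (0.007) and quantile normalization (0.044), and leaving out 1 library gave -0.090 to 0.046. The signs of BAG3 and DNAJB1 turned with depth as a covariate (-0.061 and -0.068), and leaving out 1 library gave -0.105 to 0.207 for DNAJB1, -0.485 to 0.177 for HSPA1A and -0.480 to 0.140 for HSPA1B. The cause was not tested. The median of all genes stayed between -0.027 and 0.008 under every setting. Depth is known only in relative terms, so no counting error can be given for low members such as HSPA4L and HSPA2.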
